A study of Mus musculus with 9 samples.

Results

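Extracellular nucleotides are a main signal to microglia, the macrophages that live in brain tissue. ATP leaking from damaged or active cells is cut to ADP and AMP by the ectonucleotidase CD39 and on to adenosine by CD73, and each product acts on its own receptors. ADP acts on the Gi-coupled receptors P2Y12 and P2Y13, which steer microglial processes toward the source. UDP acts on P2Y6, a receptor tied to phagocytosis, and UDP-glucose on P2Y14. ATP itself opens the ion channels P2X4 and P2X7, the second of which needs high ATP and is known for setting off the inflammasome.

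The genes described here were chosen by symbol. They are the P2Y receptor genes P2ry12, P2ry13, P2ry6 and P2ry14, the P2X channel genes P2rx4 and P2rx7, Entpd1, which encodes CD39, and Nt5e, which encodes CD73. All 8 symbols had a row among the 45664 of the count table, and 6 of the 8 passed the filter on low counts, which kept 13067 genes. P2ry14 and Nt5e did not pass it and are given as counts.

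RNA was sequenced from microglia of both visual cortices of 9 male C57BL/6 mice in adolescence, 1 library per mouse. The ethanol group (4 mice) received 1.8 g per kg ethanol (20% v/v) under the skin 2 times a day, 2 h apart, from postnatal day 4 to day 9, for 3.6 g per kg a day, and the saline group (5 mice) received the same volume of saline on the same days. Ethanol 1 and 2 were collected at 35 days of age and ethanol 3 and 4 at 30 days, and saline 1 to 5 at 36, 30, 35, 29 and 30 days. All mice were perfused, and live CD11b+ CD45low cells were sorted after myelin removal, in both groups alike. The mice came from 3 litters, and which mouse came from which litter is not stated.

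Libraries held 12816198 to 28859244 counts. The labels also give 9291 to 19071 sorted cells and RNA integrity numbers of 9.1 to 9.9 for ethanol mice, and 8923 to 17832 sorted cells and 9.0 to 9.9 for saline mice. The part of these, and of body weight, tissue weight and RNA concentration, in the results was not tested. The microglial markers checked (11 of 11 present, Csf1r and Cx3cr1 among them) summed to 51900 to 59300 CPM (counts scaled to library size with TMM factors) in ethanol mice and 52300 to 58800 CPM in saline mice. Summed neuronal markers lay between 82.4 and 313 CPM in ethanol mice and between 3.64 and 256 CPM in saline mice, and border macrophage markers between 39.3 and 92.1 CPM in ethanol mice and between 48.4 and 82.0 CPM in saline mice. Saline 1 was the library at 3.64 CPM. A single gene led each of these sums. Over the 9 libraries Kif5a averaged 125.9 CPM and the next neuronal marker, Map2, 10.02 CPM. Mrc1 averaged 57.45 CPM and the next border macrophage marker, F13a1, 1.065 CPM. Summed monocyte and neutrophil markers lay between 4.84 and 16.0 CPM in ethanol mice and between 4.69 and 8.40 CPM in saline mice. Ccr2, with 1173 counts over the 9 libraries, was the most abundant of them. Lymphocyte and platelet markers summed to 0.124 to 0.692 CPM in ethanol mice and 0.147 to 1.09 CPM in saline mice. S100a8, S100a9 and Cd3e were among the markers of these 2 lists with 0 counts in all 9 libraries. Values are also given without saline 1 and ethanol 2, which earlier results of these data had set apart from the other libraries. In sorted bulk RNA, fewer cells with a transcript and less of it per cell cannot be told apart.

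The genes spanned a wide range of levels in adolescent microglia. P2ry12 and P2ry13 were among the most abundant transcripts of these cells, Entpd1, P2ry6 and P2rx7 were well above the middle gene, P2rx4 was moderate, and P2ry14 and Nt5e were close to absent. Compared per length (CPM per kb of merged exons), P2ry12 averaged 3291 ± 399 CPM per kb (SD, n = 9) and ranked 7 of 12408 genes with a known length. P2ry13 averaged 1130 ± 195 CPM per kb and ranked 25. Entpd1 was at 208.4 ± 23.7 CPM per kb, within the top 1.02% of genes, and P2ry6 at 138.0 ± 29 CPM per kb, within the top 1.65%. The channel genes stood lower, P2rx7 at 68.2 ± 3.82 CPM per kb (rank 502) and P2rx4 at 16.1 ± 0.922 CPM per kb (rank 2679). The middle gene had 5.33 CPM per kb.

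Per kb of merged exons, the order of the 6 genes was the same in each of the 9 libraries. Every neighbouring pair in the order had ranges that did not overlap over the libraries. Per kb of the longest transcript, Entpd1 and P2ry6 did overlap: in saline 4, P2ry6 was at 256.1 and Entpd1 at 254.5 CPM per kb. P2ry12 exceeded P2ry13 2.91-fold in mean CPM per kb, P2ry13 exceeded Entpd1 5.42-fold, Entpd1 exceeded P2ry6 1.51-fold, P2ry6 exceeded P2rx7 2.02-fold and P2rx7 exceeded P2rx4 4.22-fold. These are descriptions of levels with no test.

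**Figure D1:**
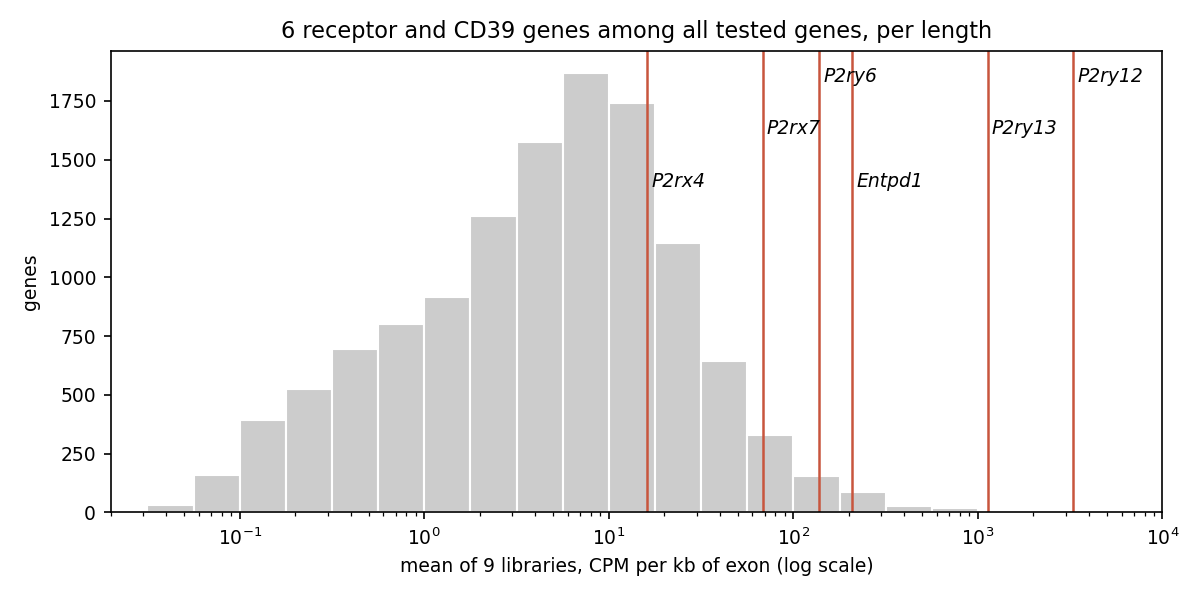
Histogram of the mean level of the 12408 tested genes with a known length, on a log axis of CPM per kb of exon. Vertical lines mark the 6 genes, from P2rx4 at 16.1 to P2ry12 at 3291 CPM per kb, all to the right of the middle gene at 5.33 CPM per kb.

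The 3 P2Y genes P2ry14, P2ry13 and P2ry12 lie side by side on the minus strand of chromosome 3 (GRCm38), at 59113855 to 59153618, 59207892 to 59210882 and 59216272 to 59262871. All 3 lie inside Med12l, which encodes a Mediator subunit and runs on the plus strand from 59005825 to 59318682. Of the 2546 exon bases of P2ry12, 9 overlap an exon of Med12l (0.353%), and the exons of P2ry13 and P2ry14 overlap none. Med12l itself was at 74.7 to 109 CPM in ethanol mice and 81.6 to 130 CPM in saline mice. P2ry6 is on chromosome 7 (100937630 to 100974649, minus strand). P2rx7 and P2rx4 are neighbours on the plus strand of chromosome 5 (122643911 to 122691432 and 122707544 to 122729738). Entpd1 is on chromosome 19 (40612366 to 40741602) and Nt5e on chromosome 9 (88327197 to 88372092), both on the plus strand. Besides Med12l, the gene that shares exon bases with a member is Mir8115, which lies within 119 of the 5970 exon bases of P2rx7.

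The sequences before the starts of the 3 clustered genes are shown because neighbours in a single locus differed so widely in level. RefSeq (GRCm38.p6) gave a promoter entry for 7 of the 8 genes. Each line is the 250 bases before the start annotated by RefSeq, 5′ to 3′ on the minus strand. For P2ry14 it is the most upstream of its RefSeq starts. The positions given above are from GENCODE, and the starts of P2ry12 and P2ry14 differ between the annotations. The P2ry14 window runs into the GENCODE gene, which reaches to 59153618, and its GAGGAA match falls inside that gene. The P2ry12 window does not adjoin the GENCODE gene, which reaches to 59262871. The windows are chr3:59262986-59263235 for P2ry12, chr3:59210883-59211132 for P2ry13 and chr3:59153493-59153742 for P2ry14. Capitals mark matches to GAGGAA, the core of many sites of the myeloid factor PU.1, and TGANTCA, the AP-1 site, searched on both strands.
P2ry12: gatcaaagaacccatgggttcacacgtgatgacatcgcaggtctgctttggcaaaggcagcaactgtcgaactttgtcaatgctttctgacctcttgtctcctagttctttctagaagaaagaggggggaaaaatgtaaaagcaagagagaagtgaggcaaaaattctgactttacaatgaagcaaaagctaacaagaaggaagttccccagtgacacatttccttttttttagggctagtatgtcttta
P2ry13: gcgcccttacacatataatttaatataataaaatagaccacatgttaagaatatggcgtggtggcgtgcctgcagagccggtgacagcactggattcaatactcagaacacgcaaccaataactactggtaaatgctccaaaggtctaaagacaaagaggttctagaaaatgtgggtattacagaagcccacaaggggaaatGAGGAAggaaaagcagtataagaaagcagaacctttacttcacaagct
P2ry14: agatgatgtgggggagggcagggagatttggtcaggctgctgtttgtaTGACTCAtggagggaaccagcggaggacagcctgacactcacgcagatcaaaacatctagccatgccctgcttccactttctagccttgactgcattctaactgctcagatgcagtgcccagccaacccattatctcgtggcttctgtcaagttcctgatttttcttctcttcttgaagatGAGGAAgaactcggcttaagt
GAGGAA occurred in the P2ry13 and P2ry14 windows and in 23.3% of all 32851 windows of this length. TGANTCA occurred in the P2ry14 window and in 6.75% of all windows. The MEF2 motif, also searched, occurred in none of the 3 and in 3.20% of all. The P2ry12 window held no match to the 3 motifs. A match describes the letters and not a bound site.

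The comparison of ethanol with saline asked whether heavy ethanol in the first days after birth left a mark on these genes in adolescence. None of the 6 tested genes passed edgeR's quasi-likelihood test with Benjamini-Hochberg adjustment over all 13067 genes (0 of 6 members, 0% of all genes). At an unadjusted p under 0.05, 0 of 6 members and 2.95% of all genes were counted. DESeq2 and limma-voom also called 0 of the 6. Of the 6, 2 had a log2 fold change above 0 and 4 below, with a median of -0.02 against -0.00068 over all genes. The ethanol and saline ranges overlapped for all 6, and did not overlap for 1.29% of all genes. Markers of other cells leaned with the groups: 10 of 10 tested astrocyte and 8 of 8 tested neuronal markers had log2 fold changes above 0 for ethanol. For 4 of 4 tested border macrophage markers they were below 0, and none passed the test. Summed neuronal markers were at 3.64 CPM in saline 1, 129 to 256 CPM in saline 2 to 5 and 82.4 to 313 CPM in ethanol mice. The part of saline 1 in this lean, and of these markers in the members' values, was not tested.

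The ADP receptor P2ry12 had 8036, 10250, 8878 and 7961 CPM in ethanol 1 to 4, against 8990, 9102, 6918, 7443 and 7837 CPM in saline 1 to 5. Ethanol 2 was the highest of the 9 libraries and saline 3 the lowest, and the other libraries of the groups interleaved. The mean was 8782 ± 1070 CPM in ethanol mice (SD, n = 4) and 8058 ± 960 CPM in saline mice (SD, n = 5), a log2 fold change of 0.12 ± 0.10 (SE; 95% interval -0.10 to 0.35, adjusted p = 0.963 in edgeR's test). As a ratio, the interval ran from 0.933 to 1.27. Without ethanol 2 the log2 fold change was 0.04.

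P2ry13, which encodes the second ADP receptor, had 2536, 3465, 3235 and 2728 CPM in ethanol 1 to 4, against 3445, 3169, 2231, 2175 and 2716 CPM in saline 1 to 5. Ethanol 2 and saline 1 were close to each other at the top, and saline 3 and 4 were the lowest. The log2 fold change was 0.12 ± 0.15 (SE; 95% interval -0.21 to 0.45, edgeR adjusted p = 0.963). It was 0.04 without ethanol 2 and 0.22 without saline 1.

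Over the 9 libraries, the UDP receptor P2ry6 had the widest spread of the 6 tested genes. Its coefficient of variation was 21%, against 5.60% for P2rx7. This rested on ethanol 2: without it, the SD of log2 CPM was 0.183 for P2ry6 and 0.246 for P2ry13. Among saline mice the coefficient was 13.8% for P2ry6, 20.4% for P2ry13 and 14.9% for Entpd1. P2ry6 had 447, 219, 389 and 363 CPM in ethanol 1 to 4, against 394, 354, 480, 498 and 440 CPM in saline 1 to 5. Ethanol 2 was far below the rest, and the other 3 ethanol mice lay within the saline range. The mean was 354.7 ± 96.8 CPM in ethanol mice (SD, n = 4) and 433.2 ± 59.8 CPM in saline mice (SD, n = 5). The log2 fold change was -0.29 ± 0.18 (SE; 95% interval -0.70 to 0.12, edgeR adjusted p = 0.963), and -0.12 without ethanol 2. Without ethanol 1 it was -0.42, with an unadjusted p of 0.0444 in edgeR's test, the only left-out library that brought a member under 0.05. In that fit, 1 of 6 members and 474 of 13343 genes were under an unadjusted p of 0.05. In ethanol 2, P2ry6 was 0.93 log2 units below the mean of the other 8 libraries (deviation -0.93), a place that 9.17% of the 8480 genes with a mean of at least 10 CPM were at or below. In log2 units the library's other members moved less, with deviations of 0.34 for P2ry12 and P2ry13, 0.16 for P2rx4, -0.04 for Entpd1 and -0.19 for P2rx7. The share of genes at or below them was 89.2% for P2ry12, 89.0% for P2ry13, 64.3% for P2rx4, 42.4% for Entpd1 and 31.5% for P2rx7.

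P2ry14, the UDP-glucose receptor gene, was barely detected. Its counts were 0, 3, 0 and 5 in ethanol 1 to 4, against 13, 1, 1, 0 and 8 in saline 1 to 5. Summed, that was 8 of 74146404 counts in ethanol mice (0.108 CPM, exact Poisson 95% interval 0.0466 to 0.213) and 23 of 106427654 in saline mice (0.216 CPM, 0.137 to 0.324). The groups overlapped, and an exact two-sided permutation test over all splits of the 9 mice gave p = 0.444 for the difference of mean CPM. The interval covers counting error only.

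The ATP-gated channel genes were the steadiest. P2rx4 had 112, 125, 108 and 105 CPM in ethanol 1 to 4, against 114, 112, 116, 108 and 121 CPM in saline 1 to 5. The groups lay on top of each other, with a log2 fold change of -0.02 ± 0.08 (SE; 95% interval -0.19 to 0.14, edgeR adjusted p = 0.981). P2rx7 had 415, 362, 429 and 411 CPM in ethanol 1 to 4, against 422, 388, 410, 392 and 434 CPM in saline 1 to 5. Ethanol 2 was the lowest, and the other ethanol mice fell inside the saline range. The log2 fold change was -0.02 ± 0.07 (SE; 95% interval -0.18 to 0.14, edgeR adjusted p = 0.986). For these 2 genes the interval of the ratio ran from 0.875 to 1.10 and from 0.885 to 1.10.

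The ectonucleotidases differed sharply from each other in level. Entpd1, the gene of CD39, had 1151, 1131, 1183 and 1061 CPM in ethanol 1 to 4, against 1454, 1024, 1111, 1074 and 1277 CPM in saline 1 to 5. Saline 1 was the highest library, and the 4 ethanol mice lay inside the saline range. The mean was 1132 ± 51.9 CPM in ethanol mice (SD, n = 4) and 1188 ± 176 CPM in saline mice (SD, n = 5), with a log2 fold change of -0.07 ± 0.10 (SE; 95% interval -0.29 to 0.15, edgeR adjusted p = 0.963). Without saline 1 it was 0.01.

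Nt5e, the gene of CD73, had 0 counts in all 4 ethanol libraries and 5, 6, 3, 1 and 0 counts in saline 1 to 5. The 0 of 74146404 counts in ethanol mice allows a level of up to 0.0405 CPM over the group by the limit of 3 counts, and up to 0.0498 CPM by the exact Poisson 95% interval. The 15 of 106427654 counts in saline mice give 0.141 CPM, with an exact Poisson 95% interval of 0.0789 to 0.232 CPM that covers counting error and not the spread between mice. The groups met at 0, since saline 5 had none. An exact two-sided permutation test over all splits of the 9 mice gave p = 0.0794, or 0.159 adjusted over the tests of Nt5e and P2ry14. In the fit with no filter on counts, edgeR's quasi-likelihood test gave Nt5e an unadjusted p of 0.0133 and an adjusted p of 0.793 over 23832 genes. Under an unadjusted p of 0.05 in that fit were 1 of 8 members and 862 of the 23832 genes. P2ry14 had an unadjusted p of 0.332 and an adjusted p of 0.817 in the same edgeR fit.

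**Figure D2:**
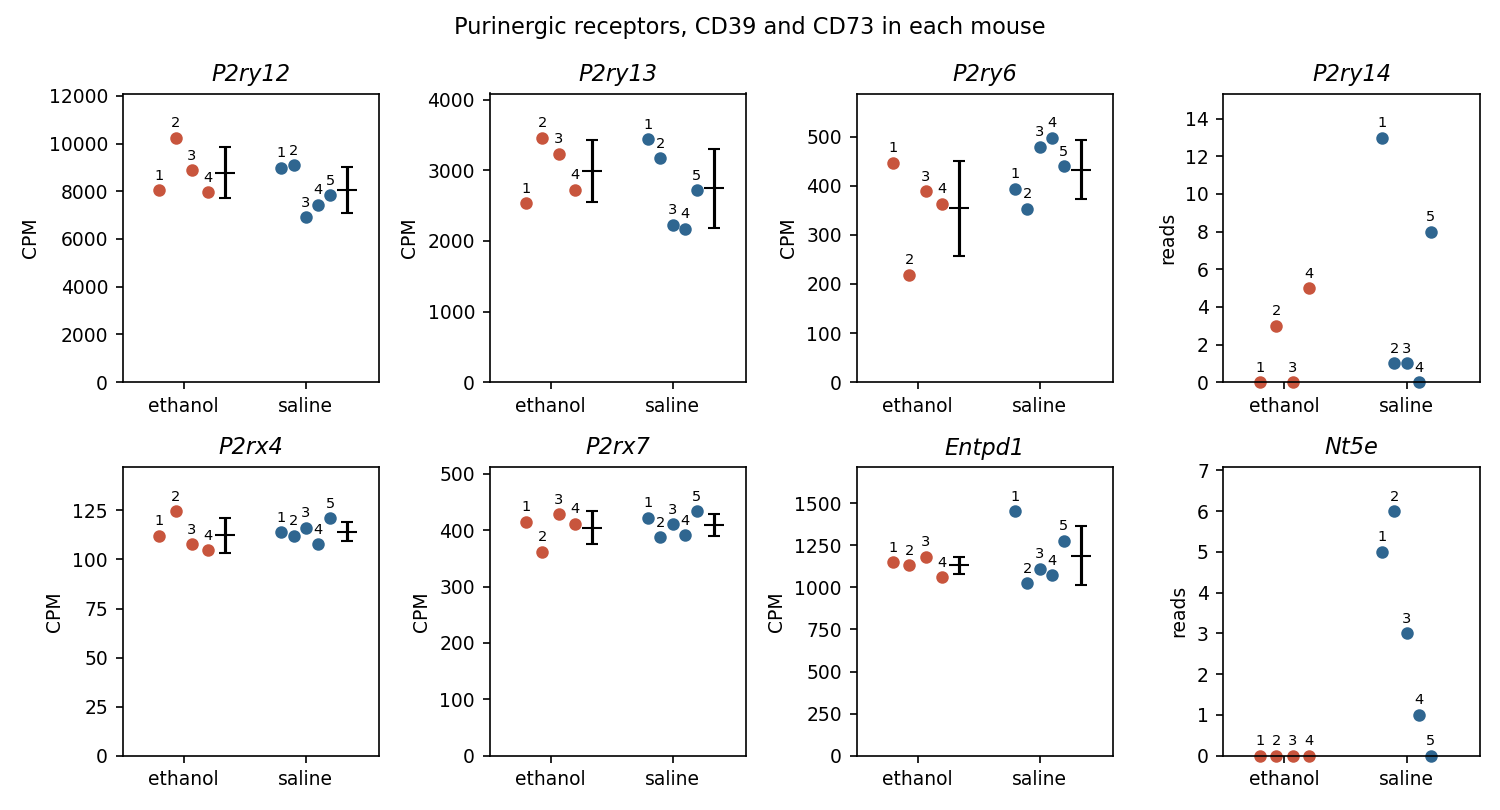
Each of the 8 genes in every mouse, ethanol left and saline right, numbered by library. The y axis is CPM from 0 with mean ± SD beside the points, or reads for P2ry14 and Nt5e. Ethanol 2 is the low P2ry6 point at 219 CPM, saline 1 the high Entpd1 point at 1454 CPM, and Nt5e has 0 reads in all 4 ethanol mice.

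**Figure D3:**
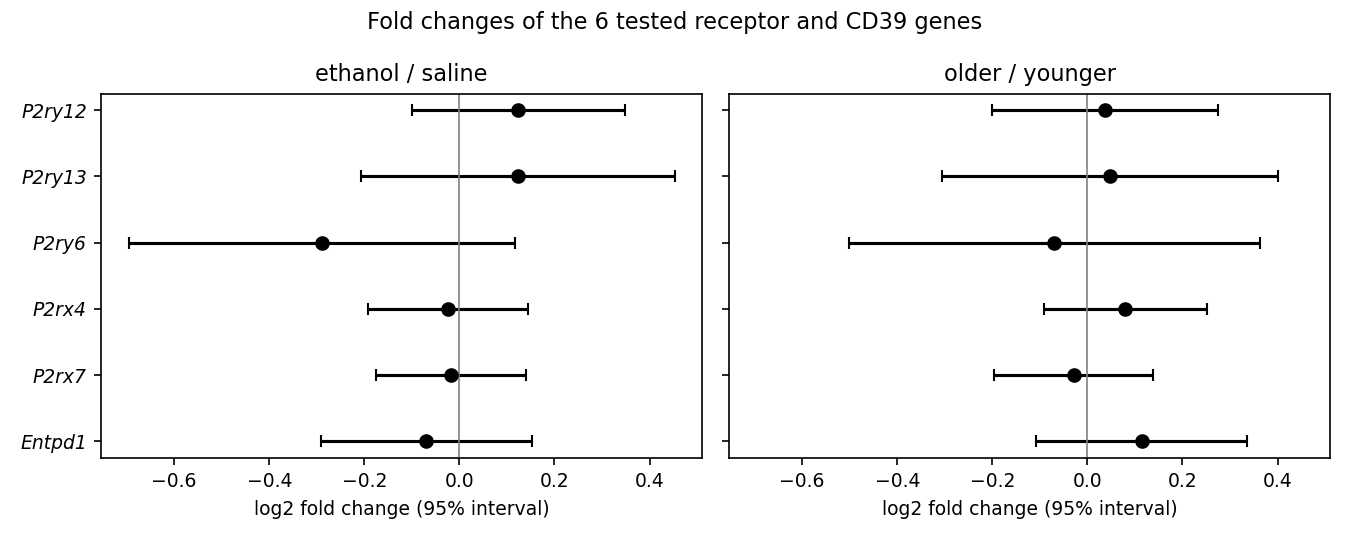
Log2 fold changes with 95% intervals of the 6 tested genes, for ethanol over saline (left) and older over younger mice (right). Every interval includes 0, and the widest in either panel is that of P2ry6.

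The mice also fell into 2 age cohorts, 4 mice of 35 or 36 days and 5 of 29 or 30 days. No member passed edgeR's test of older against younger mice with ethanol as a covariate (0 of 6, and 0% of all genes; at an unadjusted p under 0.05, 0 of 6 and 2.85% of all genes). P2ry12 averaged 8549 ± 1420 CPM in older mice (SD, n = 4) and 8244 ± 712 CPM in younger mice (SD, n = 5), and Entpd1 averaged 1212 ± 162 CPM in older mice and 1124 ± 104 CPM in younger mice. The log2 fold changes for age ran from -0.07 for P2ry6 to 0.11 for Entpd1. Without saline 1 and ethanol 2, which were both older, P2ry12 was at -0.16, P2ry13 at -0.25 and P2ry6 at 0.20, on the other side of 0 from the full set, and Entpd1 was at 0.01. The older and younger ranges overlapped for all 6 genes, and did not overlap for 1.24% of all genes. All 8 tested neuronal markers and 9 of 10 astrocyte markers had log2 fold changes below 0 for age. Saline 1, an older mouse, had the lowest sum of neuronal markers, at 3.64 CPM. The part of saline 1 and of these markers in the values for age was not tested.

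The ethanol difference was also tested for an interaction with age cohort. The interaction passed for 0 of 6 members and 0% of all genes (unadjusted, 0 of 6 and 3.24%). On simulated counts the interaction test recovered 17.9% of 2-fold differences, so it could miss most of that size. Within the older mice P2ry6 averaged 333.1 CPM in ethanol (n = 2) and 436.7 CPM in saline (n = 2), and within the younger mice 376.2 CPM in ethanol (n = 2) and 430.9 CPM in saline (n = 3). P2ry12 averaged 9145 CPM in ethanol and 7954 CPM in saline mice of the older cohort, and 8419 CPM in ethanol and 8127 CPM in saline mice of the younger. Library names carry a suffix, 1-5-16 or 1-6-16, shared by 2 ethanol and 2 saline libraries each, and saline 1 alone has 1-X-16. Among the libraries with suffix 1-5-16, P2ry6 had 447 and 219 CPM in ethanol and 480 and 498 CPM in saline mice, while P2ry13 had 2536 and 3465 CPM in ethanol and 2231 and 2175 CPM in saline mice. The ranges were also apart for P2ry12 (8036 to 10250 against 6918 to 7443 CPM) and Entpd1 (1131 to 1151 against 1074 to 1111 CPM). They overlapped for P2rx4 and P2rx7. The share of all genes with such ranges was not counted. Of these mice saline 4 was 29 days old and the others 35 days, and the part of age was not tested. The log2 ratio of mean CPM, ethanol over saline, was -0.55 for P2ry6 and 0.45 for P2ry13 with suffix 1-5-16. With suffix 1-6-16 it was -0.08 for P2ry6 and 0.02 for P2ry13.

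P2ry12 and P2ry13 followed each other from mouse to mouse in both groups. Pearson's r of their log2 CPM was 0.926 over the 9 libraries (Spearman's rho 0.883), and 0.931 over the 7 without saline 1 and ethanol 2. The ratio of P2ry12 to P2ry13 in CPM stayed between 2.74 and 3.17 in ethanol mice and between 2.61 and 3.42 in saline mice. P2ry6 went the other way, with r of -0.861 with P2ry12 and -0.739 with P2ry13, and of -0.802 and -0.866 without those libraries. Saline 3 and 4 had the lowest P2ry13 and the highest P2ry6, and ethanol 2 the highest P2ry12 and the lowest P2ry6. For scale, 90% of the r of P2ry12 with all other genes of at least 10 CPM lay between -0.77 and 0.77. The same range was -0.715 to 0.744 for P2ry13 and -0.745 to 0.889 for P2ry6. The r of -0.739 between P2ry13 and P2ry6 lay inside the range of P2ry6 and just outside that of P2ry13.

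These correlations are descriptions over points that share a library, its depth and its base composition. The longest transcripts differ in GC content, at 38.6% for P2ry12, 44.7% for P2ry13 and 55.9% for P2ry6, against a median of 49.5% over all genes. With a smooth trend on GC content and length removed from each library, an alternative added after the data were seen, r was 0.927 for P2ry12 with P2ry13, -0.557 for P2ry12 with P2ry6 and -0.541 for P2ry13 with P2ry6. The deviation of P2ry6 in ethanol 2 was -0.96 after that step. P2rx7 and Entpd1 had r of 0.523 over the 9 libraries and 0.898 over the 7, and the remaining pairs lay between -0.453 and 0.662 over the 9. Both ends of that range changed sign with the trend removed: P2ry12 with P2rx7 had r of -0.453 before and 0.622 after, and P2ry6 with P2rx7 0.662 before and -0.309 after.

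**Figure D4:**
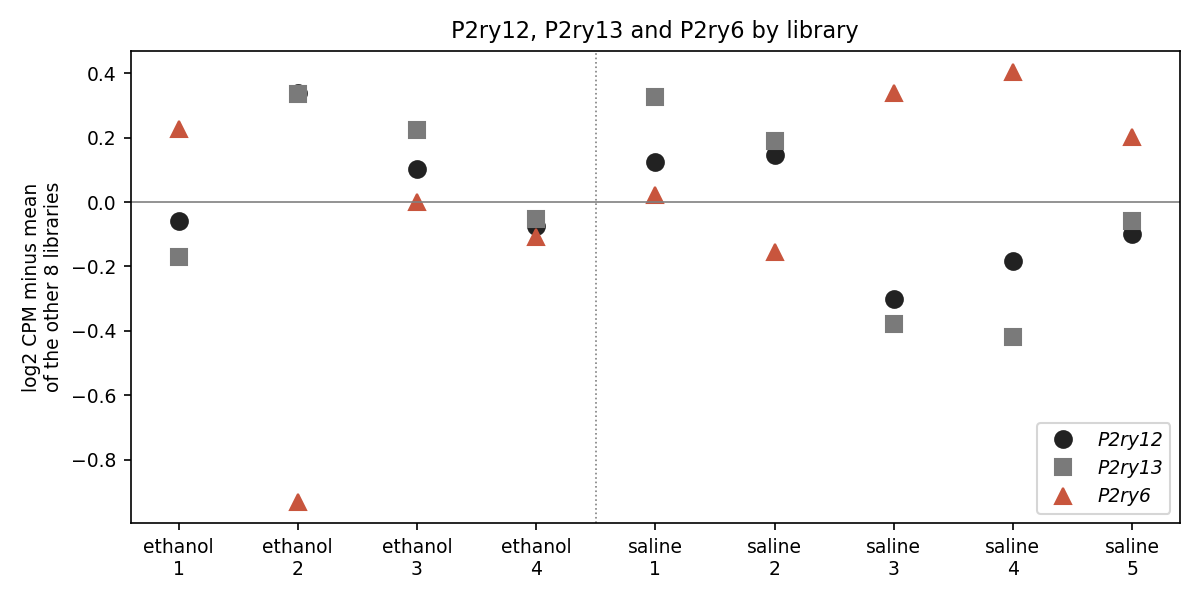
Log2 CPM of P2ry12, P2ry13 and P2ry6 in each library, as the difference from the mean of the other 8 libraries. P2ry12 and P2ry13 lie on the same side of 0 in all 9 libraries, and P2ry6 lies apart from them in ethanol 2 at -0.93 and in saline 3 and 4 at 0.34 and 0.40.

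By the rule for likeness, the genes whose pattern over the 9 libraries was closest to P2ry12 were Zfp105 (r = 0.983) and Snx2 (0.977). Those closest to P2ry13 were Trim5 (0.982) and Sfxn1 (0.973), and to P2ry6 Tshz1 (0.991) and Acads (0.989). P2rx4 was closest to Ccdc132 (0.960) and Mrps27 (0.945), P2rx7 to Slc12a7 (0.952) and Trpm2 (0.944), and Entpd1 to Tgm2 (0.921) and Man1c1 (0.921). These are the highest of 8480 genes searched, over 9 libraries, with predicted genes, Rik genes and pseudogenes passed over. Without saline 1 and ethanol 2 the r of these pairs lay between 0.876 and 0.982.

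The rest of the purinergic system was read from 6 lists. Of the other P2 receptors, 9 of 10 symbols were in the table and 2 passed the filter. P2rx1, an ATP-gated channel gene, averaged 38.2 ± 5.73 CPM in ethanol mice and 34.8 ± 2.80 CPM in saline mice, a log2 fold change of 0.13 ± 0.11 (SE). P2ry2, the gene of a receptor for ATP and UTP, averaged 0.930 ± 0.318 CPM in ethanol mice and 0.508 ± 0.423 CPM in saline mice, with a log2 fold change of 0.88 ± 0.64. P2ry1, P2ry10 and P2rx2 had 0 counts in every library.

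Of 4 adenosine receptors 2 were tested, with Adora3 the more abundant at 56.1 ± 7.34 CPM in ethanol mice and 58.4 ± 4.97 CPM in saline mice. Adora2a had 10 counts in all 9 libraries together. Among 11 tested genes of nucleotide and adenosine handling, 8 were above 0 and 3 below. The lysosomal nucleoside transporter gene Slc29a3 was the most abundant, at 1053 ± 86.1 CPM in ethanol mice and 1129 ± 101 CPM in saline mice. Entpd7, an intracellular relative of Entpd1, had the smallest p of that list, with 17.2 ± 3.79 CPM in ethanol mice and 20.7 ± 1.58 CPM in saline mice.

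Of 10 genes of ATP and UDP-glucose release, all tested, 6 were above 0. Lrrc8d, a subunit of the volume-regulated anion channel, averaged 136.9 ± 12.4 CPM in ethanol mice and 134.9 ± 20.6 CPM in saline mice, and Ano6, a scramblase gene, had a log2 fold change of -0.15 ± 0.14. The highest value of the list was the 0.66 of Gja1, which is also on the astrocyte marker list, and all 10 of those markers were above 0 for ethanol. Summed astrocyte markers were at 345 to 503 CPM in ethanol mice and 272 (saline 1) to 508 CPM in saline mice. Slc1a3 led this sum, with a mean of 280.7 CPM over the 9 libraries, and the next marker, Aldoc, had 42.25 CPM. The part of the astrocyte markers in the value of Gja1 was not tested.

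Of 17 coupling and effector genes, 6 were above 0 and 11 below. Gnai2, the inhibitory G protein through which P2Y12 signals, was at 930.0 ± 60.9 CPM in ethanol mice and 934.6 ± 85.5 CPM in saline mice, and Plcb3, a phospholipase C gene, had a log2 fold change of -0.23 ± 0.11. Of 9 genes of P2X7 outputs, 4 were above 0 and 5 below. Txnip, which encodes a regulator of thioredoxin and the inflammasome, was the most abundant, at 683.4 ± 55.3 CPM in ethanol mice and 645.1 ± 57.7 CPM in saline mice. Nlrp3, the inflammasome sensor gene, had a log2 fold change of -0.61 ± 0.24, with 41.2 ± 14.8 CPM in ethanol mice and 62.6 ± 12.1 CPM in saline mice, and ethanol 2 was its lowest library at 23.1 CPM. The 6 lists held 2, 2, 11, 10, 17 and 9 tested genes, in the order given. Of these genes only Nlrp3 had an unadjusted p under 0.05 for ethanol, a cut that 2.95% of all genes passed. For Nlrp3, edgeR's adjusted p was 0.963. No gene of the 6 lists passed edgeR's adjusted threshold for ethanol or for age, and the list medians for ethanol lay between -0.05 for P2X7 outputs and 0.51 for the 2 tested other P2 receptors, against -0.00068 over all genes.

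**Figure D5:**
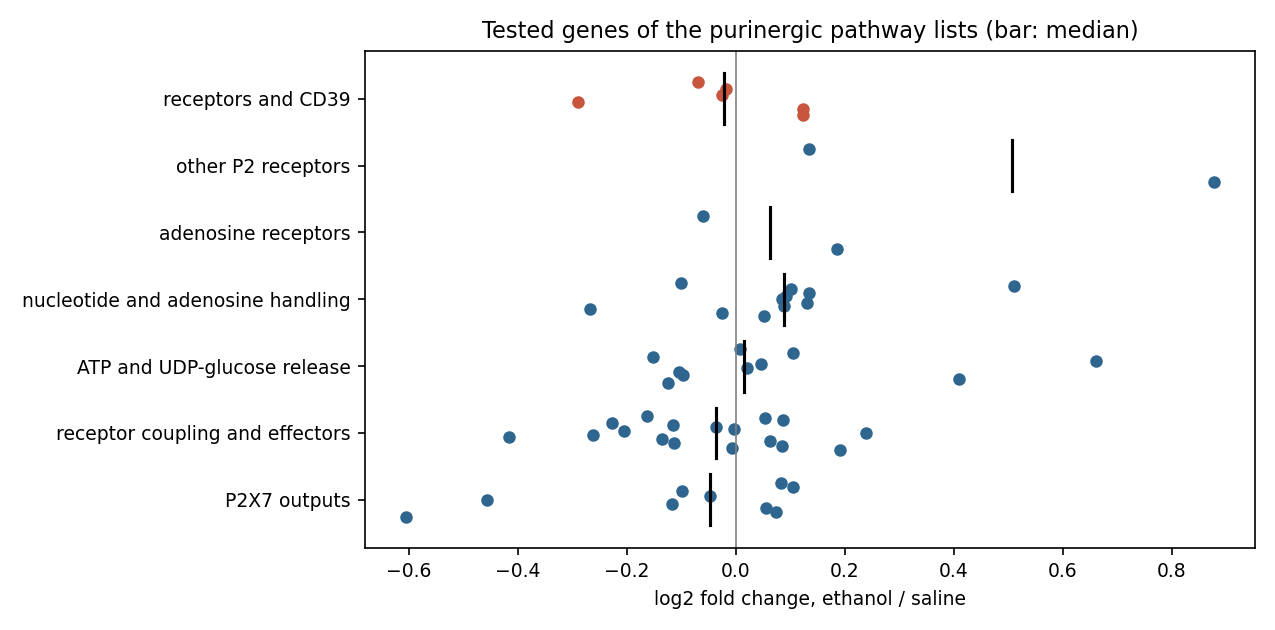
Log2 fold change, ethanol over saline, of every tested gene of the receptors and CD39 and of the 6 pathway lists, 1 point per gene with a bar at each list's median. Most points lie within 0.3 of 0 on the log2 scale, and no gene passed the adjusted threshold.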

How the data were processed

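The authors deposited raw, unnormalized counts per gene. Per the submitters' processing notes, Trimmomatic 0.32, STAR 2.4.2a, HTSeq 0.6.1 and GRCm38.p4 were used. Their settings, the annotation release and whether strand was used are not stated, so reads of overlapping or antisense genes cannot be told apart.

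Genes were kept by filterByExpr (minimum count 10, minimum total 15), scaled by TMM and tested with edgeR 4.0.16 (R 4.3.3), by quasi-likelihood with robust dispersions, Benjamini-Hochberg adjustment over all genes tested and a threshold of 0.05. Each SE is the log2 fold change over the root of F. Positions, lengths and GC came from GENCODE M21 (GRCm38), matched for 95.0% of tested genes. DESeq2 1.42.0 and limma 3.58.1 were alternatives, and exact tests used scipy 1.17.1. The procedure was tested on counts simulated from the means, dispersions and library sizes of these data. At the adjusted threshold it recovered 32.8% of 1.5-fold and 70.1% of 2-fold changes for ethanol, and 17.9% and 62.7% for age. For the interaction it recovered 0% and 17.9%.

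The genes, lists and tests were chosen with earlier results of these data known. Genes named besides the 8 were, per pathway list, that of highest mean CPM and that of smallest p for ethanol, those sharing exon bases with a member, and the 2 most alike in pattern. Any other gene named was chosen after its values were seen. Each library is a separate mouse, and mice of a litter may be alike. Alternatives covered the test, scaling, filter, covariates, age cohorts, pairing by number and left-out libraries.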

Additional observations from a re-analysis of the deposited data

How the results depend on the processing

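With every alternative tried, including each library left out in turn, 0 of the 6 members were called for ethanol and 0 for age, and 0 genes of the whole table were called for ethanol. For age 3 genes were called without saline 1 and ethanol 2, and for the interaction 1 gene by DESeq2. Leaving out single libraries gave 0 to 848 genes for the interaction. The highest number came without ethanol 1, where ethanol 2 is the only older ethanol mouse. Such a fit cannot tell an interaction from the deviation of that mouse, so no conclusion is drawn from the genes it called. Its log2 differences for the members ran from -0.77 for P2ry6 to 0.35 for P2ry12, against -0.20 and 0.15 for these genes with all libraries.

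Signs turned in these cases. For ethanol, P2rx7 (log2 fold change -0.02) was at 0.0242 with limma-voom, 0.0509 in younger mice alone, 0.0024 with the replicate block, 0.0421 without saline 1 and ethanol 2 and 0.0468 with the GC and length trend removed. Entpd1 (-0.07) was at 0.0135 with the library-name suffix as covariate and 0.0123 without saline 1 and ethanol 2, and P2rx4 (-0.02) at 0.0423 in older mice alone. For age without saline 1 and ethanol 2, P2ry12 was at -0.16, P2ry13 at -0.25, P2ry6 at 0.20 and P2rx7 at 0.0012. With 1 library left out, values for ethanol ran from -0.0823 to 0.00882 for P2rx4, from -0.0469 to 0.0285 for P2rx7 and from -0.118 to 0.0133 for Entpd1. For age they ran from -0.0401 to 0.129 for P2ry12, -0.11 to 0.16 for P2ry13, -0.24 to 0.11 for P2ry6 and -0.0549 to 0.0245 for P2rx7. The cause was not tested.

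Libraries with the same number did not deviate together (r from -0.05 to -0.01 over 4 pairs). For libraries with different numbers r ran from -0.338 to 0.237. So few pairs cannot settle whether the number stands for a pairing, and the labels do not state one. With the number as a replicate block, 0 genes were called for ethanol. The order of the 6 mean levels did not change with plain library totals or with the longest transcript as length, which put P2rx4 at 29.1 CPM per kb in place of 16.1. With the longest transcript, saline 4 had P2ry6 above Entpd1 and the ranges of these genes overlapped. Values of P2ry14 and Nt5e rest on at most 13 reads a library.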
